A study of Mus musculus with 2 samples.

Results

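The 42 genes described here encode proteins that take a cell into mitosis, build and read the spindle, part the chromosomes and divide the cytoplasm. They were chosen by gene symbol from a fixed list, with no expression value used, and all 42 were found among the 32285 features counted in dissociated brain cells of mice at postnatal day 10. The question was which cell types divide at this age, and whether the set differs between neural, glial, myeloid (microglia and macrophages) and vascular cells. The mice were of the strain given as C57BL/J, and both libraries belong to 1 untreated group. The series names 6 mice and does not tie any of them to a library, so p-values measure the spread between 2 libraries, which may be technical.

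Entry into mitosis is driven by the kinase Cdk1 with its cyclins, and the kinases Aurka, Aurkb and Plk1 set up spindle and chromosomes. Kinetochores built on the centromere catch spindle microtubules. The spindle checkpoint holds the cell until all are attached, after which the anaphase-promoting complex, working with Cdc20 and Ube2c, has cyclin B destroyed and the cell parts. Most of these genes are transcribed late in the cell cycle, and many have promoters with CCAAT boxes and a cell cycle genes homology region (CHR), a short element bound by the MuvB complex. In the young mouse brain the known dividing cells include progenitors of neurons, glial precursors, microglia and cells of growing vessels, while neurons and mature oligodendrocytes have left the cycle. Ependymal cells, which line the ventricles and carry many cilia, are post-mitotic once differentiated, and parts of the Cdk1 machinery are known to act in their precursors while centrioles are multiplied.

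Each library was made with the droplet-based Chromium 3' v3 kit, which tags every captured RNA molecule with a unique molecular identifier (UMI). Library 1 held 51452085 UMIs in 12978 barcodes and library 2 held 45532691 in 19508, with medians of 3446 and 1470 UMIs per barcode. The members made up 165380 UMIs in library 1 (0.321%) and 130363 in library 2 (0.286%), from 450 to 31910 UMIs a gene over both. After filters on quality and doublets 26035 cells remained, and 21135 of them fell into 16 classes named "X-like" from marker genes. The other 4900, of which 4777 were in library 2, stayed without a name. The members and other cell cycle genes were kept out of the genes used for clustering. Another 133 genes that followed the summed members across cells (correlation above 0.15) were not kept out. The classes are thus not fully independent of the cell cycle. Both libraries held 90 barcode sequences in common, and these were treated as separate cells.

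Promoter sequences are shown for 6 members that the results turn on: Cdk1, Top2a and Cdc20, higher than in neurons in all 3 progenitor classes and in ependymal-like cells, Mki67, and Nuf2 and Ckap2l, which stood apart in ependymal-like cells. Each line gives the 100 bases before the RefSeq start on build GRCm38.p6, all from the minus strand, read 5′ to 3′. Capitals mark TTTGAA, the best known CHR sequence, or its reverse complement TTCAAA, and CCAAT or its reverse complement ATTGG. The stretches lie at chr10:69352913-69353012 (Cdk1), chr11:99024190-99024289 (Top2a), chr4:118437344-118437443 (Cdc20), chr2:129297213-129297312 (Ckap2l), chr7:135716380-135716479 (Mki67) and chr1:169531465-169531564 (Nuf2).
Cdk1: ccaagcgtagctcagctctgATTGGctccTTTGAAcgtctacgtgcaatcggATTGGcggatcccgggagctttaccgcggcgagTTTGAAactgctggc
Top2a: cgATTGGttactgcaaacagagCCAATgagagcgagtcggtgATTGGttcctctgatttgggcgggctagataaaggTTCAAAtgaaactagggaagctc
Cdc20: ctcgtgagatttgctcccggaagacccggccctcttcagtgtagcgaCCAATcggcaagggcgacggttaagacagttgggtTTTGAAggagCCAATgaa
Ckap2l: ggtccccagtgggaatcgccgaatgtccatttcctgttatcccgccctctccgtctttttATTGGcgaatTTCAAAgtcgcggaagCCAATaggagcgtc
Mki67: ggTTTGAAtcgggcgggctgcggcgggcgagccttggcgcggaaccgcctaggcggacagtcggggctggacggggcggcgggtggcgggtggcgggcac
Nuf2: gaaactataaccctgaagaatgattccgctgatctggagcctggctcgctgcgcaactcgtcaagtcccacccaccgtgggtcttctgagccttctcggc
Cdk1, Cdc20, Top2a and Ckap2l hold both kinds of letters, Cdk1 with TTTGAA in 2 places. In Cdk1 and Cdc20 the GENCODE gene model begins inside the stretch. Top2a has 3 CCAAT boxes and Ckap2l has 2, each beside 1 TTCAAA, while Mki67 has a TTTGAA and no CCAAT. The Nuf2 stretch holds neither.

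RefSeq promoter entries were matched for 36 of the 42 members, and the 6 not matched were Aurkb, Ccna2, Tpx2, Cdc25c, Dlgap5 and Pbk. Searched on both strands from 250 bases before to 50 after the start, TTTGAA stood in 27 of 36 (75%), against 18.1% of all 27025 promoters of the same length. From 80 before to 50 after, it stood in 24 of 36 (66.7%), against 6.52% of all. CCAAT stood in 28 of 36 in the longer window (77.8%), against 37.9% of all, and TTTAAA, another CHR sequence, in 12 (33.3%), against 13.2%. None of these motifs contains another. The 9 members without TTTGAA in the longer window were Nuf2, Nusap1, Bub1, Cenpe, Tacc3, Birc5, Cks2, Ccnb1 and Gtse1. These matches describe letters in a window and not binding.

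The summed level of the 42 genes, as CPM (their UMIs scaled to a fixed total for the class), put the neural progenitor classes first in both libraries. Early neuroblast-like cells stood at 8579 CPM in library 1 and 7055 in library 2. They were led by Dlx2, Cdca7, Ccnd2, Insm1 and Dlx5, and markers of neuroblasts and of ventral progenitors were even among their top genes. Glutamatergic progenitor-like cells (Eomes, Neurog2) stood at 6508 and 7733, and ventral progenitor-like cells (Gsx2, Egfr) at 6382 and 5963. These 3 classes lie close together, with an order that changed between the libraries, and at this clustering none of their values overlapped with those of any other class.

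A middle group held glial, myeloid and vascular classes. Astrocyte-like cells (Aqp4, Aldh1l1) had 1844 CPM in library 1 and 3755 in library 2, and oligodendrocyte precursors by their markers (Pdgfra, Olig1) had 2155 and 3805. Microglia-like cells had 2014 and 2641, and their main cluster was led by Gdf15, Spp1, Ccl4, Cxcl10 and Ccl3, genes of stress and immune response, beside the microglial Cx3cr1 and P2ry12. Pericyte-like cells, which include smooth muscle markers such as Acta2, stood at 2739 and 991, fibroblast-like cells at 1288 and 4550 and endothelial-like cells (Cldn5, Flt1) at 672 and 1393. Each of these 3 vascular classes differed by more than 2-fold between the libraries. Border macrophage-like cells stood at 1375 and 1926, ependymal-like cells at 1515 and 1386, and neuroblast-like cells at 1408 and 1285. In bulk sums like these, fewer cells of a kind and less RNA per cell cannot be told apart.

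**Figure D1:**
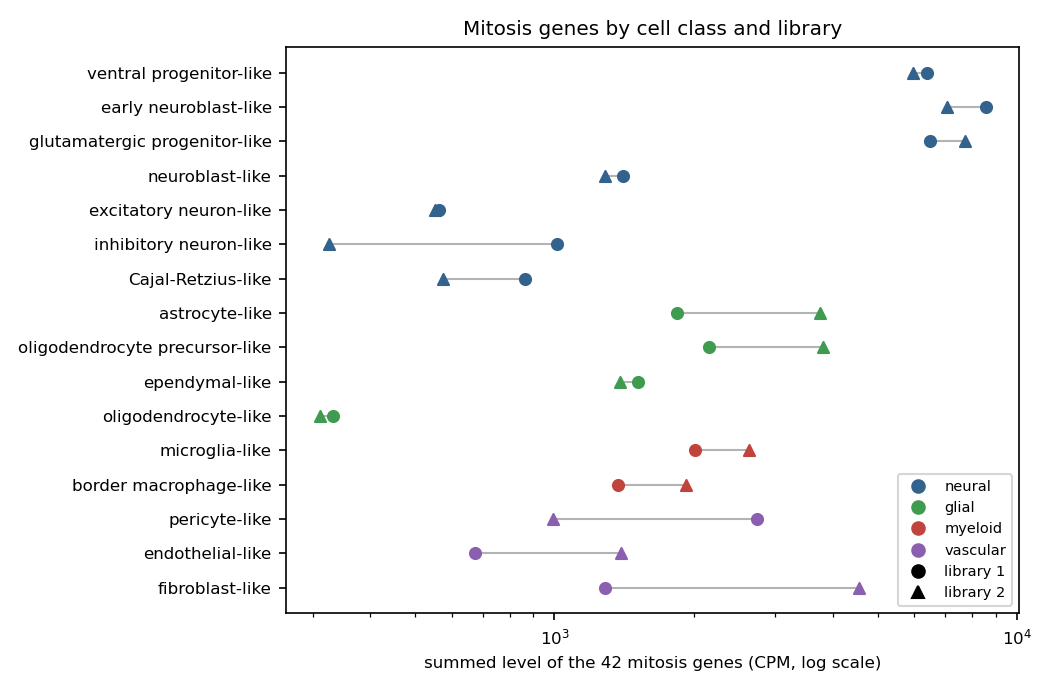
Summed level of the 42 mitosis genes (CPM, log axis) in each of 16 cell classes, with a circle for library 1 and a triangle for library 2, coloured by lineage. The 3 progenitor classes lie at 5963 CPM or more in both libraries, and excitatory neuron-like and oligodendrocyte-like cells lie lowest.

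Neurons and mature oligodendrocytes, which are known to have left the cycle, were mostly lower. Oligodendrocyte-like cells stood at 331 and 310 CPM, excitatory neuron-like cells at 561 and 552, Cajal-Retzius-like cells at 864 and 575, and inhibitory neuron-like cells at 1015 and 325. In library 1 the last 2 classes stood above endothelial-like cells. The neurons were not uniform: the excitatory cluster led by Neurod1 and Prox1 stood at 232 and 403, and the one led by Neurod6 at 1828 and 1089. Much of the neurons' level lay in few cells: by the reference division genes described with the dividing cells, 38 and 16 excitatory neuron-like cells were called dividing and held 1317 of 2070 and 720 of 1426 member UMIs of the class, and 19 inhibitory neuron-like cells of library 1 held 617 of 786. Free RNA in droplets gives UMIs also in cells that do not express a gene, and its share in these values was not measured.

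Shares of cells gave the same outline. Cells were thinned to 1500 UMIs each, and a cell was counted when it had UMIs of at least 3 members. In ventral progenitor-like cells 57.4% (exact 95% interval 54.6 to 60.2) and 51.0% (45.7 to 56.2) were counted, in early neuroblast-like cells 56.6% and 49.4%, and in glutamatergic progenitor-like cells 47.8% and 46.6%. The share of microglia-like cells was 17.6% (10.2 to 27.4) and 26.7% (24.7 to 28.9), and oligodendrocyte precursor-like cells 11.1% and 19.8%. The share of astrocyte-like cells was 9.80% (8.23 to 11.6) and 25.8% (22.5 to 29.4), and their 2 clusters differed: the one led by Aqp4 had 17.8% and 32.5%, the one led by Ttr and Crym 2.26% and 1.46%. Oligodendrocyte-like cells had 1.66% and 2.33%, at median depths of 6938 and 6114 UMIs, and excitatory neuron-like cells 2.41% and 1.89%, at 3393 and 3296. These intervals cover counting error only.

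The remaining classes lay between. Ependymal-like cells had 21.5% and 23.1%, pericyte-like cells 16.2% and 6.15%, endothelial-like cells 6.67% and 19.8%, border macrophage-like cells 7.14% and 10.5%, fibroblast-like cells 11.4% and 25%, and neuroblast-like cells 6.47% and 6.01%. Inhibitory neuron-like cells had 5.53% and 2.31% and Cajal-Retzius-like cells 2.70% and 2.11%. Library 2 held 8 fibroblast-like cells, all deep enough to count, so its value rests on 2 cells. Of 304 endothelial-like cells in library 2, 142 were too shallow to be thinned.

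Several of these shares moved by over 1.5 times with the processing, given here as means of both libraries. At Leiden resolution 0.5, where glutamatergic progenitor-like cells numbered 1200 and 779 in place of 441 and 214, their share was 14.03% in place of 47.2%, below microglia-like (22.2%) and astrocyte-like cells (18.4%). Ventral progenitor-like (47.8%) and early neuroblast-like cells (55.2%) stayed above the other classes there. The share of neuroblast-like cells was 16.7% at resolution 2, 20.005% with genes correlated with the members out of clustering, 23.1% with stricter cell quality and 39.9% thinned to 3000 UMIs, in place of 6.24%. At resolution 2 and without the correlated genes no early neuroblast-like class was found. Ventral progenitor-like cells then had 74.0% at resolution 2 and 73.2% without the correlated genes, in place of 54.2%. Fibroblast-like cells went from 18.2% to 37.0% at resolution 2, and to 37.8% without the correlated genes or with doublets kept. Ependymal-like cells went from 22.3% to 12.3% when 5 members were left out, endothelial-like cells from 13.2% to 4.47% with stricter quality, and excitatory neuron-like cells from 2.15% to 7.73% with doublets kept.

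**Figure D2:**
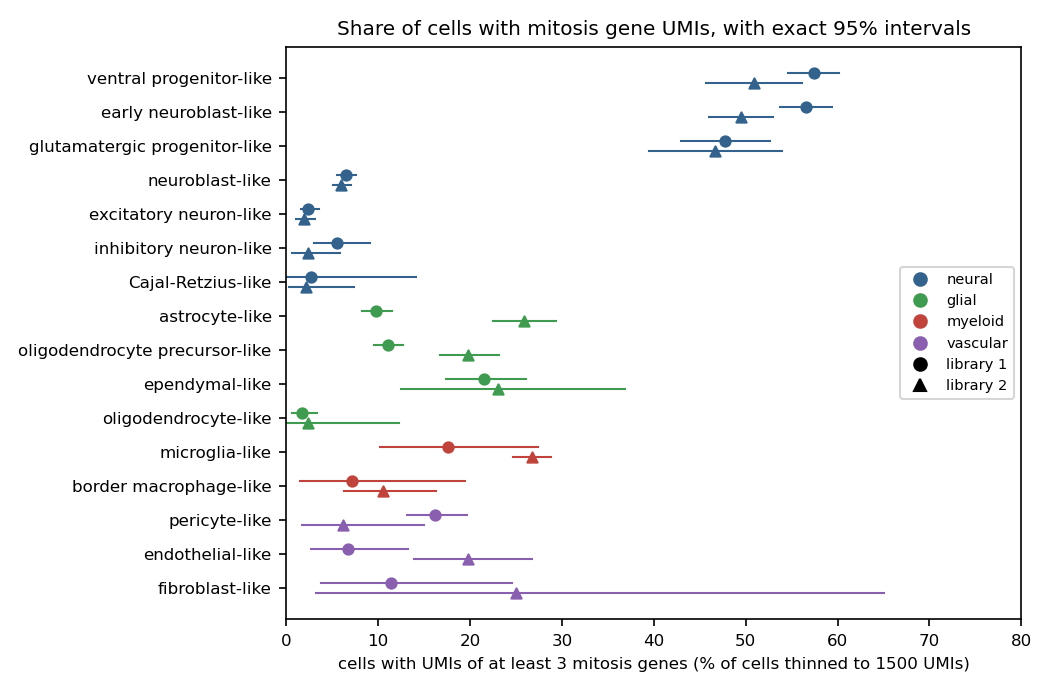
Percentage of cells with UMIs of at least 3 of the 42 mitosis genes after thinning every cell to 1500 UMIs, by class and library, with exact 95% intervals for counting error. The 3 progenitor classes lie between 46.6% and 57.4%, apart from all others except the wide interval of fibroblast-like cells in library 2, but at Leiden resolution 0.5 glutamatergic progenitor-like cells had a mean of 14.03%.

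Each class was then set against neurons, taken as post-mitotic and as the mean on the log2 scale of the excitatory and inhibitory neuron-like classes. This was 1 edgeR quasi-likelihood fit over 13311 genes with the library as a block. The neurons included the few cells called dividing above, and their printed CPM are plain means of both classes. A call required a Benjamini-Hochberg adjusted p below 0.05, a change of 1 or more on the log2 scale, and levels that differed in the same direction in both libraries. All 42 members were tested and all 42 were called higher in ventral progenitor-like cells (14.2% of all genes were called higher), in early neuroblast-like cells (9.32%) and in glutamatergic progenitor-like cells (11.8%). The medians over members were 3.62, 3.98 and 3.66 on the log2 scale. In astrocyte-like cells 40 were higher (21.0% of all genes), in oligodendrocyte precursor-like cells 40 (13.8%), in microglia-like cells 38 (20.8%), in neuroblast-like cells 36 (4.52%) and in pericyte-like cells 32 (17.4%). Their medians were 2.26, 2.33, 2.68, 1.53 and 2.28. Endothelial-like cells had 9 higher (17.6% of all genes) with a median of 0.85, a share near that of all genes. At Leiden resolution 0.5 the counts were 12 in neuroblast-like, 21 in pericyte-like and 2 in endothelial-like cells, and with stricter quality endothelial-like cells had 15. None was lower in these 9 classes, and the median over all genes tested lay between -0.12 and 0.21 in every class.

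The other division genes moved alongside. Of 69 reference division genes, such as Prc1, Knl1 and Racgap1, that are not members, 67 were higher in ventral progenitor-like, 63 in astrocyte-like, 58 in microglia-like and 10 in endothelial-like cells. DNA replication genes, active before mitosis, were higher in 54 of 55 tested in ventral progenitor-like cells, but in 22 in astrocyte-like, 36 in microglia-like and 8 in neuroblast-like cells.

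**Figure D3:**
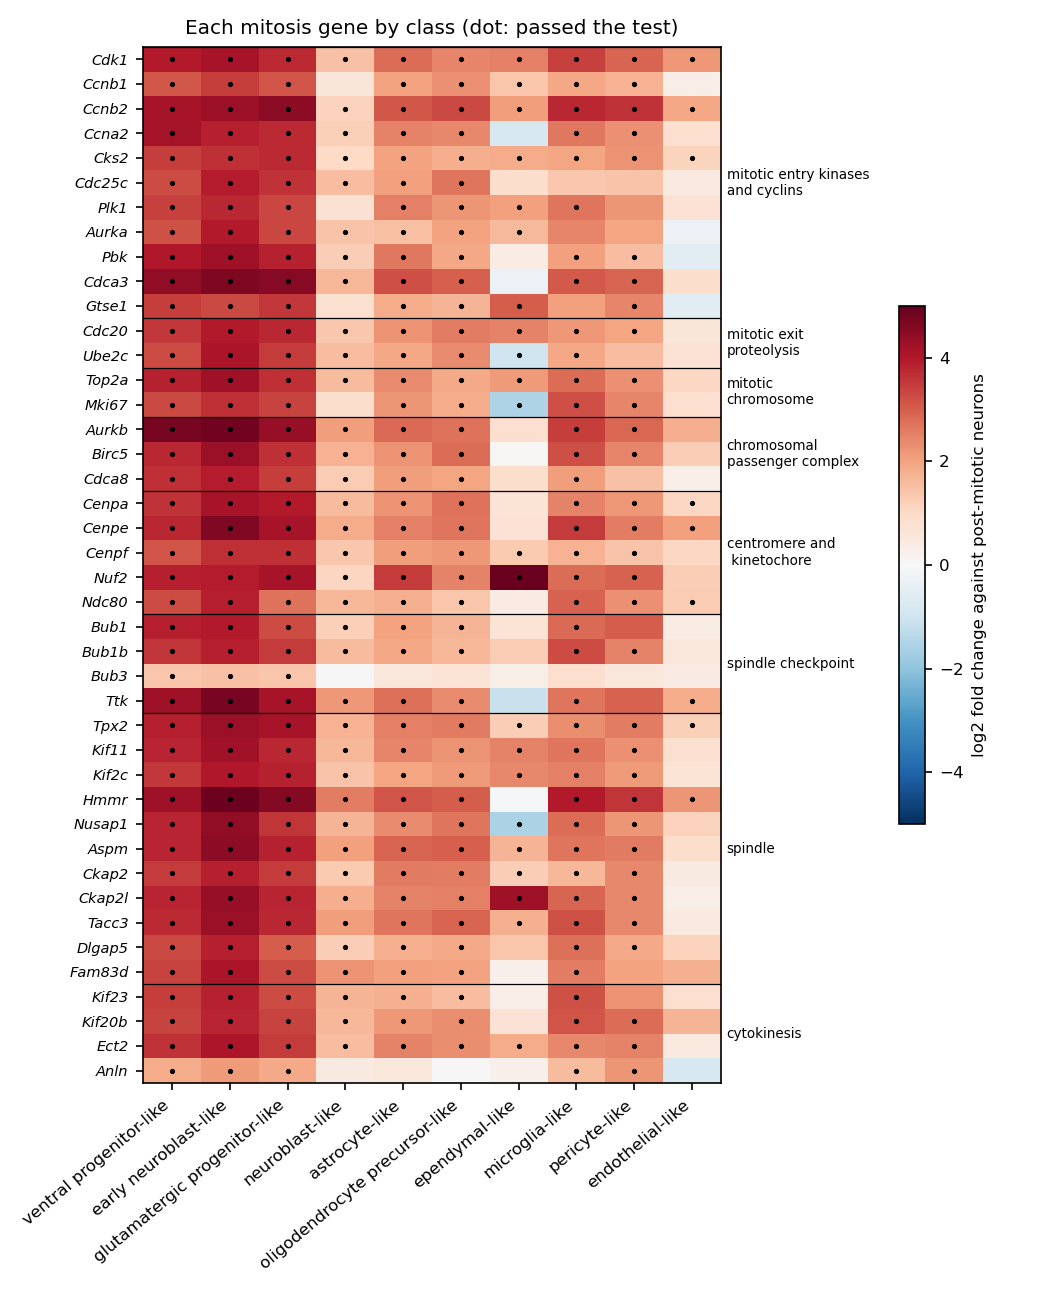
Log2 fold change of each of the 42 mitosis genes, grouped by role, in 10 classes against post-mitotic neurons, with a dot where the gene passed the test. The progenitor columns are dotted throughout, the row of Bub3 is dotted only there, and the ependymal-like column mixes higher and lower genes.

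Among the entry kinases and cyclins, Cdk1, the master mitotic kinase, had 291 and 279 CPM in ventral progenitor-like cells against 28.2 and 8.58 in neurons (log2 fold change 3.95 ± 0.21, adjusted p 4.38e-31). It stood at 133 and 167 in microglia-like cells and 88.8 and 193 in astrocyte-like cells. Neither library of any of these classes overlapped with the neurons. Cks2, which docks on Cdk1, had 538 and 550 in ventral progenitor-like cells and 62.1 and 38.7 in neurons. All 11 genes of the group were higher in the 3 progenitor classes, in astrocyte-like and in oligodendrocyte precursor-like cells, 8 in microglia-like and pericyte-like cells and 3 in endothelial-like cells (Cdk1, Ccnb2 and Cks2). Cdc25c, the phosphatase that switches Cdk1 on, was not called in microglia-like cells, with 0 and 9.71 CPM.

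Of the mitotic exit genes, Ube2c, the ubiquitin-conjugating enzyme of the anaphase-promoting complex, stood at 640 and 596 CPM in ventral progenitor-like cells against 98.2 and 36.2 in neurons (3.26 ± 0.21). Cdc20, the activator of that complex, had 158 and 161 against 19.96 and 8.17 (3.52 ± 0.23). In pericyte-like cells Ube2c had 242 CPM in library 1 and 26.8 in library 2, the latter below the neurons, and was not called.

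The chromosome genes are Top2a, which untangles DNA, and Mki67, the coat protein of mitotic chromosomes known as the proliferation marker Ki-67. Both were called higher in 7 of the 10 classes, and in ependymal-like cells Top2a was called higher and Mki67 lower. Top2a had 442 and 339 CPM in ventral progenitor-like cells against 43.9 and 14.6 in neurons (3.85 ± 0.20). Mki67 had 117 and 105 against 15.01 and 8.58 (3.29 ± 0.23), and 85.9 and 90.8 in microglia-like cells (3.21 ± 0.25). In neuroblast-like cells Top2a was higher (83.0 and 70.5 CPM) and Mki67 (19.8 and 20.5) was not called.

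In the chromosomal passenger complex, which corrects attachments, Birc5 (survivin) had 357 and 357 CPM in ventral progenitor-like cells against 33.9 and 20.3 in neurons (3.78 ± 0.19), and Cdca8 (borealin) 275 and 258 against 25.5 and 18.1 (3.66 ± 0.19). Aurkb, its kinase, had the largest difference of any member in ventral progenitor-like cells, 131 and 111 against 6.86 and 2.16 (4.73 ± 0.25). At the centromere, Cenpa, the centromeric histone, had 400 and 445 against 43.1 and 28.9 (3.63 ± 0.18), and Cenpf 260 and 234 against 33.1 and 26.9 (3.13 ± 0.20). All 5 centromere and kinetochore genes were higher in each of the 8 classes named above with 32 or more calls.

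The spindle checkpoint held the member that followed the set least. Bub3, a checkpoint protein that also serves outside mitosis, stood at 112 and 105 CPM in neurons and 280 and 257 in ventral progenitor-like cells (1.40 ± 0.12). It was called higher in the 3 progenitor classes and in none of the other 7, where its values ran from 92.1 CPM in neuroblast-like to 190 in oligodendrocyte precursor-like cells. In 5 of those 7 its adjusted p was under 0.05, with log2 differences of 0.42 to 0.84, short of the limit of 1. Its level in neurons was 40.3% of that in ventral progenitor-like cells, and in oligodendrocyte-like cells 33.7%. Bub1, the checkpoint kinase, had 52.6 and 40.8 in ventral progenitor-like cells against 4.04 and 3.35 in neurons (3.87 ± 0.29).

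Spindle genes were higher as a full group of 11 in the 3 progenitor classes, neuroblast-like, astrocyte-like, oligodendrocyte precursor-like and microglia-like cells. Nusap1, which bundles spindle microtubules, had 207 and 188 CPM in ventral progenitor-like cells against 21.1 and 7.58 in neurons (3.81 ± 0.21). Tpx2, the activator of Aurka, had 147 and 136 against 12.5 and 7.67 (3.90 ± 0.22). Fam83d, at a low 16.9 and 15.9 in ventral progenitor-like cells, stood at 2.59 and 7.30 in oligodendrocyte-like cells, 30.1% of that level.

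Of the cytokinesis genes, Kif23, a motor of the midbody, had 57.1 and 40.8 CPM in ventral progenitor-like cells against 7.54 and 4.57 in neurons (3.45 ± 0.27), and Ect2, which switches on the contractile ring, 47.0 and 43.1 against 5.23 and 2.52 (3.62 ± 0.29). Anln, the ring's scaffold anillin, behaved differently. It had 23.7 and 23.0 in ventral progenitor-like cells and 34.0 and 19.1 in pericyte-like cells (2.20 ± 0.32 against neurons). In astrocyte-like (9.37 and 11.5), oligodendrocyte precursor-like (5.53 and 10.3) and neuroblast-like cells (8.34 and 7.93) it was not called against neurons at 9.07 and 4.16.

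Another pair of classes was added at a limit of 40 cells per library, in a fit over 13403 genes chosen after seeing the data. Border macrophage-like cells had 27 members higher (17.0% of all genes) and a median of 1.94. In library 1, 3 of the 44 border macrophage-like cells were called dividing and held 173 of 229 member UMIs of the class. Its levels in that library thus rest mostly on these few cells, and 7 members had no UMI there. In oligodendrocyte-like cells 1 member was higher (12.6% of all genes were called higher) and 11 were lower (12.4% lower), with a median of -0.87. The lower ones included Cdk1 (1.94 and 3.65 CPM, log2 fold change -2.94 ± 0.49), Ube2c (10.0 and 7.30) and Cdc20 (2.27 and 0). Ckap2, a microtubule-associated spindle protein, was the higher one, with 19.1 and 7.30 CPM against 9.30 and 3.90 in neurons (1.72 ± 0.34, adjusted p 3.02e-06). This fold change is from the fit and exceeds the ratio of the printed CPM in both libraries. Oligodendrocyte-like cells numbered 426 and 43. In library 2 they held 85 UMIs over all 42 members, and 17 members had none. The neurons of these comparisons include the cells called dividing.

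Ependymal-like cells, named from cilia genes such as Ccdc153 and Tmem212, held an uneven part of the set. Against neurons 19 members were higher (28.6% of all genes were called higher) and 3 lower (15.7% lower), and the median was 1.05. Nuf2, a kinetochore subunit, had 134 and 129 CPM against 5.70 and 2.55 in neurons (4.93 ± 0.27, adjusted p 1.13e-31), above its level in every other class. Ckap2l, a spindle protein, had 85.4 and 73.6 against 6.28 and 2.55 (4.22 ± 0.31). Both were singled out after their values were seen. Cdk1 had 118 and 92.0 (2.51 ± 0.28), Top2a 126 and 132 (2.11 ± 0.26), Cdc20 85.4 and 55.2 (2.48 ± 0.30) and Kif11, the spindle motor, 48.2 and 49.0 (2.46 ± 0.35).

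Other members stood at or below the neurons in the same cells, where the neurons include the cells called dividing. Mki67 had 3.67 and 6.13 CPM against 15.01 and 8.58 (-1.55 ± 0.63, adjusted p 0.0272), and Nusap1 4.59 and 6.13 against 21.1 and 7.58 (-1.58 ± 0.58, adjusted p 0.0149). Ube2c had 36.7 and 15.3 against 98.2 and 36.2 (-1.01 ± 0.36). These 3 lower calls depended on the settings: with the DESeq2 test or with doublets kept none was made, and with doublets kept the difference of Ube2c was 0.80. At a coarser clustering (Leiden resolution 0.5) the counts were 8 higher and 7 lower, with a median of 0.07. By role, 7 of 11 entry kinases and cyclins and 7 of 11 spindle genes were higher, 2 of 5 centromere genes, 0 of 3 chromosomal passenger genes and 0 of 4 checkpoint genes. Birc5 had 26.6 and 30.7 CPM, and Bub1 had 5.51 and 6.13, neither called. In these cells 23 of 69 reference division genes were higher and 3 lower, and 10 of 55 replication genes were higher and 8 lower. Ependymal-like cells numbered 389 in library 1 and 52 in library 2, and 5 members had no UMI in library 2. TTTGAA, from 80 before to 50 after the start, stood in 11 of the 18 matched members that were higher, 1 of 3 lower and 12 of 15 not called.

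Single cells were described for Nuf2, picked after its values were seen, and low pair counts follow in part from the low level of Mki67 in the class. After thinning, 67 of 362 ependymal-like cells of library 1 had a Nuf2 UMI (18.5%), and in library 2 10 of 52 had one (19.2%), against 6.72% and 5.99% of ventral progenitor-like cells. Of those 67 cells, 2 had a Top2a UMI (2.99%, exact 95% interval 0.364 to 10.4) and 1 an Mki67 UMI (1.49%, 0.0378 to 8.04). Of the 10 in library 2, none had either, which allows a share of up to 30.8% as the upper bound of the exact interval. In ventral progenitor-like cells with a Nuf2 UMI, 62.2% of 82 and 59.1% of 22 had a Top2a UMI, and 19.5% and 22.7% an Mki67 UMI. In astrocyte-like cells with a Nuf2 UMI, 16.9% of 71 and 38.9% of 36 had a Top2a UMI, and 11.3% and 25% an Mki67 UMI. Of 35 ependymal-like cells with a Top2a UMI in library 1, 1 had an Mki67 UMI (2.86%), against 19.2% of 407 in ventral progenitor-like cells. These shares are counts of UMIs in thinned cells and not of cells expressing a gene.

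Summed over whole lineages, the order changed between the libraries. Neural cells (progenitors, neuroblasts and neurons) stood at 4640 and 3289 CPM, glial cells at 1650 and 3529, myeloid cells at 1803 and 2580 and vascular cells at 2118 and 1451. In library 1 neural cells were the highest, and in library 2 glial cells were. The log2 ratio of glial to neural cells was -1.49 in library 1 and 0.10 in library 2. Shares of cells with UMIs of at least 3 members were 28.04% and 18.3% in neural, 10.6% and 22.2% in glial, 14.2% and 25.4% in myeloid and 14.4% and 16.2% in vascular cells. Progenitor-like and early neuroblast-like cells were a larger part of neural cells in library 1, where ventral progenitor-like cells numbered 1247 of 7339, than in library 2, with 379 of 5366. Glial classes also differed within themselves, astrocyte-like cells with 1844 and 3755 CPM. The part of either in the lineage differences was not tested beyond weighting the classes equally.

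In 1 fit over 13744 genes, 13 members were lower in glial than in neural cells (26.4% of all genes were called in either direction) and none higher, with a median log2 fold change of -0.91. This count was 0 with the DESeq2 test and at Leiden resolution 2, 6 without ependymal-like cells and 31 with doublets kept. The members called included Top2a (82.7 and 167 CPM against 312 and 171, -1.14 ± 0.38, adjusted p 0.0292) and Ube2c (162 and 376 against 537 and 390), whose values in library 2 were nearly level. Against neural cells 6 were lower in myeloid (41.0% of all genes called) and 21 in vascular cells (34.3% called), with medians of -0.43 and -1.02. At resolution 2 these counts were 1 and 11, and with the DESeq2 test the vascular count was 8. Against glial cells 6 were higher in myeloid cells (41.8% called): Bub1b, Mki67, Anln, Kif23, Ndc80 and Kif20b, with a median over all 42 of 0.40. None was called between vascular and glial cells (29.1% called; 2 members at an unadjusted p under 0.05 in edgeR, and 0 called by DESeq2), and Bub1b and Mki67 were lower in vascular than in myeloid cells (26.9% called). In 4 of these 6 comparisons the share of members called was below that of all genes, and the medians over all genes lay between -0.15 and 0.03.

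Weighting each class of a lineage equally, an alternative chosen after seeing the data, changed these counts. Myeloid cells then had 4 members higher than neural cells and none lower, glial cells 1 higher and 3 lower, and vascular cells 4 lower. Vascular cells had 18 members lower than myeloid cells, and myeloid cells 14 higher than glial cells. The few calls between myeloid and neural cells thus went from lower to higher with the weighting of classes. The shares of all genes called are not given for this fit, so its counts were not read as a result about the members.

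Cells that divide were then compared with one another, to ask whether the mix of members differs by lineage. A cell was called dividing when, thinned to 1500 UMIs, it had UMIs of at least 3 of the 69 reference division genes, so that no member was used. This gave 1966 and 902 neural, 467 and 313 glial, 19 and 460 myeloid and 101 and 34 vascular cells. Their summed member levels were 9970 and 10384 CPM in neural, 7843 and 10058 in glial, 8517 and 7497 in myeloid and 9292 and 7007 in vascular cells. The glial cells included 76 and 16 ependymal-like cells, which stood at 3145 and 2936 CPM. The lineages lay closer together here than over all cells, but all were chosen by the same limit on genes that move with the members. That choice itself draws the levels together, so nothing about the lineages was read from it. Among dividing cells of classes and lineages with at least 10 in both libraries, and leaving out ependymal-like cells, entry kinases and cyclins made up 22.9% to 31.7% of member UMIs, spindle genes 12.5% to 18.1% and checkpoint genes 4.29% to 6.81%.

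Between dividing glial and dividing neural cells no member was called (21.7% of 11310 genes were called; 17 members had an unadjusted p under 0.05 in edgeR, and DESeq2 called 0), with a median of -0.34. Several members had an adjusted p under 0.05 in edgeR but fell short of the log2 limit of 1. All of these were lower in glial cells, among them Ndc80 (-0.93, adjusted p 4.8e-05), Kif23 (-0.68, adjusted p 0.00237) and Top2a (-0.58, adjusted p 0.0254). The glial values include the ependymal-like cells. Leaving those out, a setting added after seeing the data, kept the member counts between dividing lineages within 1.5 times of those given. Between dividing myeloid and neural cells 2 were lower (34.0% of genes called): Ckap2, 55.7 and 48.8 CPM against 110 and 125 (-1.16 ± 0.26, adjusted p 3.94e-05), and Cdc25c, 0 and 31.2 against 69.9 and 79.2 (-1.27 ± 0.28). Between dividing myeloid and glial cells 4 were higher (35.1% of genes called in either direction), Bub1b, Kif23, Ndc80 and Anln, and the same Ckap2 and Cdc25c were lower. Kif23 had 100.2 and 107.5 CPM in dividing myeloid and 49.98 and 66.6 in dividing glial cells (1.21 ± 0.24), and Ndc80 111 and 73.1 against 34.2 and 42.4 (1.36 ± 0.26). The Kif23 fold change is from the fit and exceeds the ratio of the printed CPM in both libraries. The myeloid cells are shared by both comparisons, so the calls of Ckap2 and Cdc25c are not independent. The myeloid values of library 1 rest on 19 cells.

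Between dividing vascular and neural cells 2 members were called (22.7% of genes called). Anln was higher, with 112 and 65.5 CPM against 39.95 and 35.4 (1.30 ± 0.27, adjusted p 1.87e-05), and dividing glial cells had 26.2 and 28.3. Pbk, a mitotic kinase, was lower, with 212 and 85.2 against 459 and 412 (-1.41 ± 0.25, adjusted p 2.32e-07). The values of both libraries were apart from the neural ones in each case. In all 4 comparisons the share of members called was below that of all genes tested, and medians over all genes lay between -0.16 and 0.05.

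**Figure D4:**
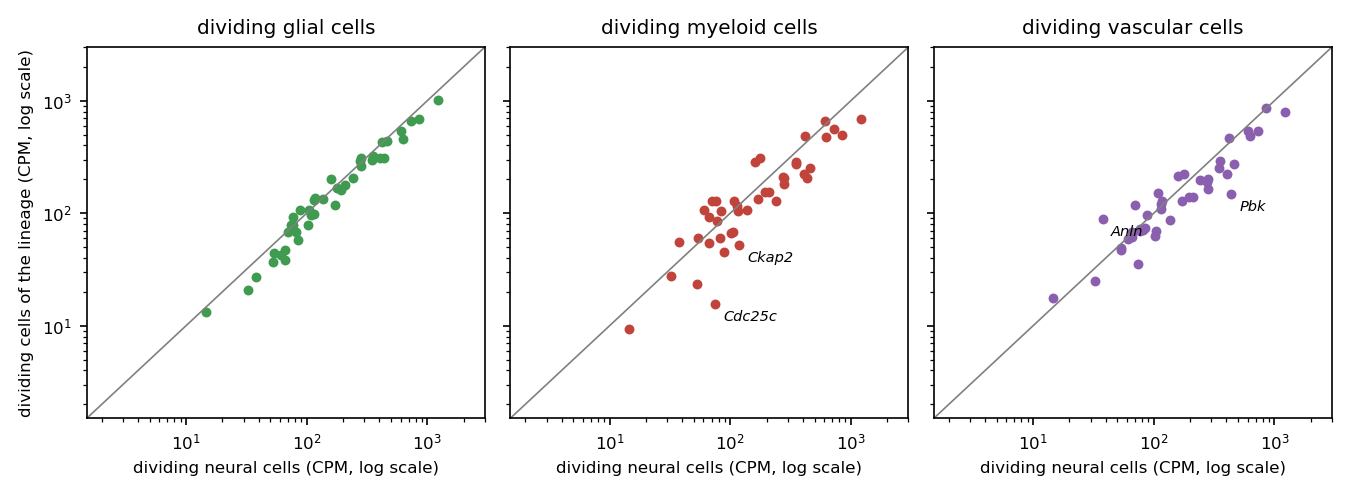
Level of each of the 42 mitosis genes in dividing glial, myeloid and vascular cells against dividing neural cells (mean CPM of 2 libraries, log axes), with the line of equality and the names of members that passed the test. Most points lie near the line, and Ckap2 and Cdc25c lie below it in myeloid cells, Anln above and Pbk below it in vascular cells.

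Replication genes were read in the same dividing cells, beside the shares of all genes just given. Of 56 tested, 18 were lower in glial than in neural cells, with a median of -0.87, among them Mcm7 (100 and 94.9 CPM against 238 and 211) and E2f1. In vascular cells 13 were lower than in neural cells, a share near that of all genes, and in myeloid cells 2 were higher and 7 lower. Between myeloid and glial cells 11 were higher, and in both myeloid comparisons the share was below that of all genes. Summed, they stood at 5167 and 4304 CPM in dividing neural cells, 2907 and 2672 in glial, 2761 and 2940 in myeloid and 3529 and 2550 in vascular cells. Of the 69 reference genes, which chose the cells, 1 was higher and 5 lower in glial than in neural cells. The glial cells in these counts include the ependymal-like ones, and replication counts without them were not made.

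Class by class, an alternative added after seeing the data, dividing cells were set against dividing ventral progenitor-like cells over 10628 genes. No member was called in dividing early neuroblast-like (10.9% of genes called; 33 members at an unadjusted p under 0.05), glutamatergic progenitor-like (5.41%; 18 members), astrocyte-like (16.1%; 12 members) or oligodendrocyte precursor-like cells (17.1%; 21 members), all by edgeR. Medians were 0.42, 0.26, -0.04 and 0.13, and no member's log2 difference reached the limit of 1 in these classes. In dividing microglia-like cells 1 member was called (32.3% of genes): Mki67, with 371 and 264 CPM against 157 and 154 (1.11 ± 0.14, adjusted p 3.1e-15).

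Ependymal-like cells that met the limit, 76 and 16 in number, were the exception. Against dividing ventral progenitor-like cells 32 members were lower and 1 higher (37.0% of genes called), with a median of -1.87. Nusap1 had 1 UMI in library 1 and 0 in library 2 (1.88 and 0 CPM) against 287 and 287 CPM, and Ccna2, cyclin A2, 2 and 0 UMIs (3.76 and 0 CPM) against 238 and 234. Mki67 had 7.51 and 18.9 against 157 and 154 (-4.22 ± 0.38). All 3 passenger genes and all 4 checkpoint genes were lower. Ckap2l was higher, with 209 and 161 against 86.4 and 83.1 (1.03 ± 0.19). The 9 not called were Nuf2, Aurka, Kif2c, Cdc20, Anln, Cdk1, Top2a, Cks2 and Gtse1. Cdc20 had 229 and 161 CPM against 216 and 243, a log2 fold change of -0.25 ± 0.17. The reference genes that chose these cells were 3 higher and 54 lower of 69, and 48 of 56 replication genes were lower. Nuf2 had 71.4 and 75.8 CPM in the cells that met the limit, below its 134 and 129 over all ependymal-like cells.

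**Figure D5:**
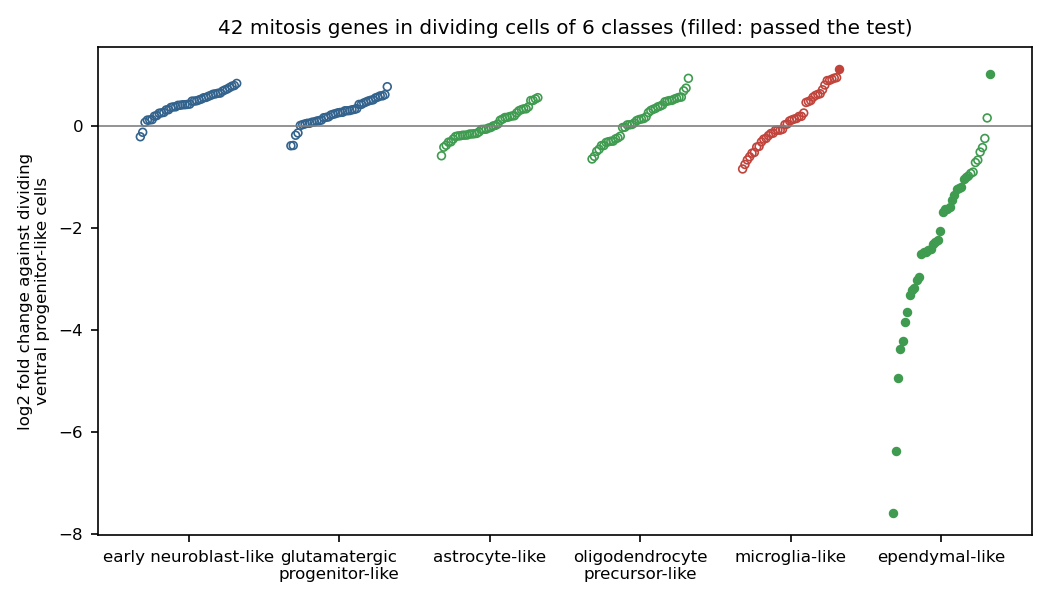
Log2 fold change of each of the 42 mitosis genes in dividing cells of 6 classes against dividing ventral progenitor-like cells, ordered within a class, filled where the gene passed the test. Points of 5 classes lie between -0.85 and 1.11, with Mki67 filled in microglia-like cells, and most of those of ependymal-like cells lie below -1, down to Nusap1.

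The median cell that the reference genes had chosen had UMIs of more members than the median other cell of its class. The exception was the 1 such oligodendrocyte-like cell of library 2, with 0 members. As the reference genes move with the members, the choice of cells itself favours this outcome. The median dividing cell had UMIs of 8 members in both libraries of ventral progenitor-like and of microglia-like cells, and the median other cell had 0. In ependymal-like cells the medians were 4 and 3 in dividing cells and 1 in the others. Of dividing excitatory neuron-like cells, 38 and 16 in number, 50% and 62.5% had UMIs of at least 3 members, against 0.599% and 0.552% of the other cells of that class.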

How the data were processed

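Deposited values were counts: the authors' files give UMIs per gene and barcode, whole numbers without normalisation, per the file headers and values, made with Cell Ranger 6.1.2 on mm10, per the submitters' processing notes. No annotation release is named in the sources used here. Gene models came from GENCODE M21 and promoters from RefSeq. Barcodes needed 500 genes or more and a mitochondrial share of UMIs up to 10% (12618 and 14965 passed). Scrublet in scanpy 1.11.5 (expected rate 6%) removed 651 doublets in library 1. Its threshold marked 5 in library 2, so, as a choice made after seeing the data, the top 6% (897) were removed there. The 2000 most variable genes, 30 principal components and 15 neighbours gave 26 Leiden clusters at resolution 1. To take the name of 1 of 21 marker lists, a cluster needed at least 3 of its markers at 2-fold and 20 CPM. It also needed a minimum mean log2 score over the list, a marker among its top 10 genes and no close rival list. Lists outside the 4 lineages gave no name, nor did shallow clusters almost wholly from 1 library. By these rules together 6 stayed unnamed. A neuroblast cluster that also scored for ventral progenitors was named early neuroblast-like. UMIs were summed per library and class, lineage or set of dividing cells (at least 50 cells a class and 10 dividing cells in each library) and tested two-sided with edgeR 4.0.16 (TMM, filterByExpr, R 4.3.3), with the library as a block because classes of 1 library share a suspension. The ± after a log2 fold change is its SE. Fold changes come from the TMM-scaled fit, with the neuron classes averaged on the log2 scale. They can differ from ratios of the printed CPM. Members, lists and naming rules were chosen with earlier results of these data known. Named were, per role, the 2 members highest in dividing cells, members called between dividing lineages, and those whose level in neurons or oligodendrocyte-like cells was at least 25% of that in ventral progenitor-like cells. Others were picked after seeing values. Genes with exons overlapping on the other strand (Ccna2, Cdc25c, Plk1, Cdc20, Ube2c, Cdca8, Nusap1, Ckap2l, Tacc3) and Top2a, which overlaps Gm23451, are uncertain, since counting settings are not given. Scripts were tested on simulated data. DESeq2 1.42.0 was an alternative.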

Additional observations from a re-analysis of the deposited data

Results flagged for a closer look

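The members had UMIs in 6 clusters that were left without a name and entered no comparison, in each case above the level of neurons and oligodendrocyte-like cells. The summed level over both libraries was 3498 CPM in cluster 14 (100 cells, with fibroblast genes such as Col1a1 among the leading genes, median 1004 UMIs), 5047 in cluster 16 (68 cells, 67 of them in library 1) and 2496 in cluster 23 (92 cells, led by S100a8 and S100a9). It was 3155 in cluster 17 (2322 cells, median 966 UMIs), 2700 in cluster 20 (2245 cells, led by globin genes, median 992 UMIs) and 2798 in cluster 25 (73 cells, led by Foxj1, Ccnb1 and Meig1, all in library 2). Clusters 17 and 20 were almost wholly from library 2. Of the cells deep enough to thin in library 2, 298 in cluster 17 and 269 in cluster 20, 70.1% and 55.0% had UMIs of at least 3 members. These are the deepest cells of shallow clusters, so the shares do not describe the clusters.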

How the results depend on the processing

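Counts of called members for the ventral progenitor-like, early neuroblast-like, glutamatergic progenitor-like, astrocyte-like, oligodendrocyte precursor-like, microglia-like and ependymal-like classes stayed within 1.5 times of the reported ones under every alternative that could be run, although ependymal-like cells went from 19 higher and 3 lower to 8 higher and 7 lower at Leiden resolution 0.5. In all, 117 of 153 recomputed counts over all cells and 43 of 48 in dividing cells did. The library was a block in the reported fits. Without the replicate block the count between myeloid and neural cells went from 6 to 3, and no other left that range. The count between glial and neural cells went from 13 to 10, within the range. With classes weighted equally (added after seeing the data) the counts were glial against neural 4, myeloid against neural 4 with the direction reversed, vascular against neural 4, myeloid against glial 14, vascular against glial 5 and vascular against myeloid 18. Without ependymal-like cells, glial against neural had 6. With the DESeq2 test the counts were glial against neural 0, vascular against neural 8, myeloid against glial 2, vascular against myeloid 1 and neuroblast-like 22. With DESeq2 size factors, glial against neural had 8 and vascular against myeloid 1. With no low count filter, vascular against glial had 1 and vascular against myeloid 4. With doublets kept, glial against neural had 31, myeloid against glial 11 and vascular against glial 1. With stricter cell quality, glial against neural had 23, myeloid against neural 10, vascular against neural 34, vascular against glial 3, endothelial-like 15 and dividing myeloid against neural 4. At Leiden resolution 0.5, endothelial-like had 2, neuroblast-like 12, pericyte-like 21, vascular against glial 1 and dividing glial against neural 1. At resolution 2, endothelial-like had 4, glial against neural 0, myeloid against neural 1, vascular against neural 11, vascular against glial 1, vascular against myeloid 0 and dividing myeloid against neural 1. With genes correlated with the members out of clustering, vascular against glial had 1 and dividing glial against neural 1, and with a limit of 2 reference genes the latter had 2. The causes were not tested.

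Left with 1 library, the log2 ratio of summed levels ranged from -1.49 to 0.10 for glial against neural, -1.36 to -0.35 for myeloid against neural, -1.18 to -1.13 for vascular against neural, -0.45 to 0.13 for myeloid against glial, -1.28 to 0.36 for vascular against glial and -0.83 to 0.23 for vascular against myeloid cells, so 4 of 6 turned with the library left out. One library gives no test. The share of cells with UMIs of at least 3 members ranged over libraries from 10.6% to 22.2% in glial, 14.2% to 25.4% in myeloid, 18.3% to 28.04% in neural and 14.4% to 16.2% in vascular cells. Thinned to 3000 UMIs, the mean share was 29.9% in myeloid and 47.1% in neural cells. It was 30.6% in neural cells with doublets kept, 32.4% with stricter quality, and in vascular cells 11.4% at resolution 0.5, 13.4% at resolution 2, 20.1% with a limit of 2 members, 13.2% without correlated clustering genes, 10.2% with stricter quality and 13.5% without 5 members. Of single members, Tpx2 in ependymal-like cells turned to -0.18 at resolution 0.5, and Ube2c to 0.80 with doublets kept. Stricter quality left ependymal-like cells too few for a value.

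Depth limits these results in small groups: 19 dividing myeloid cells in library 1, 34 dividing vascular cells in library 2 and 43 oligodendrocyte-like cells in library 2.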
